A study of Homo sapiens with 6 samples.

Results

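Transcripts of the mitochondrial ribosomal proteins were examined in the human gastric cancer line YCC3 after silencing of CTNNB1, the gene of the Wnt co-activator beta-catenin. The genes were those whose only symbol in the array annotation begins with MRPL or MRPS and a digit, pseudogenes left out, with the brightest array row standing for a gene that had several. This gave 73 of the 18417 genes measured, 50 of the large and 23 of the small ribosomal subunit. The cells were transfected with CTNNB1 siRNA (3 arrays) or with non-targeting control siRNA (3 arrays), duplexes that make the cell destroy a matching mRNA, or match none. All cultures were of the same line and were harvested 48 hours after transfection. For each sample 500 ng of total RNA was labelled for an Affymetrix Human Gene ST array. The labels name the samples biological replicates without saying what was kept separate between them, so p-values cover the spread of these arrays, which may be technical. They also do not say whether the CTNNB1 siRNA was 1 sequence or a pool.

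Mitochondria keep ribosomes of their own, which translate the few messages of mitochondrial DNA, all of them for subunits of the respiratory chain and ATP synthase. The RNA of these ribosomes comes from mitochondrial DNA, but every protein is encoded in the nucleus, made in the cytosol and imported. Some of the proteins descend from bacterial ribosomal proteins, while others were gained in mitochondria and have no bacterial counterpart. Loss of several of them causes combined oxidative phosphorylation deficiency in humans.

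The knockdown was visible in every array. CTNNB1 measured 10.94, 11.06 and 11.20 with CTNNB1 siRNA, against 11.80, 11.81 and 11.90 with control siRNA, in log2 units of the deposited RMA signal. Its log2 change was -0.77 ± 0.10 (SE; limma, adjusted p = 0.00267). Medians of all rows lay between 5.88 and 5.95 on the 6 arrays. The 6 gastric epithelial markers (KRT8, KRT18, KRT19, EPCAM, CDH1 and TFF1) averaged 9.04 to 13.58 with CTNNB1 siRNA and 8.42 to 13.57 with control siRNA. Of these, TFF1, a secreted trefoil peptide of the gastric surface, rose by 1.15 ± 0.11 log2 units (SE; limma, adjusted p = 0.000314), and the others did not pass. Its part in the results was not tested. The 3 leukocyte markers measured (PTPRC, CD3E and CD14) averaged 2.67 to 5.68 with CTNNB1 siRNA and 2.58 to 5.50 with control siRNA, and 4 endothelial and fibroblast markers averaged 3.97 to 6.77 with CTNNB1 siRNA and 4.04 to 6.66 with control siRNA.

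Most mitochondrial ribosomal protein genes had a slightly lower signal with CTNNB1 siRNA, and few of these differences passed the test. Of the 73 genes, 5 fell, none rose and 68 did not pass the test. MRPS27, MRPL30, MRPS34, MRPS23 and MRPL15 were the 5 that fell, by 26.5% to 34.3% of their array signal. A gene is said to have fallen or risen where its adjusted p in limma, over all 18417 genes, was under 0.05. By that rule 2.65% of all genes fell and 2.07% rose, beside 6.85% and 0 of the mitochondrial ribosomal protein genes. The log2 change was negative for 66 of the 73, with a median of -0.20, or 12.9% less signal, beside 48.8% negative changes and a median of 0.0056 over all genes. The cumulative plot shows this displacement along most of the range of changes.

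**Figure D1:**
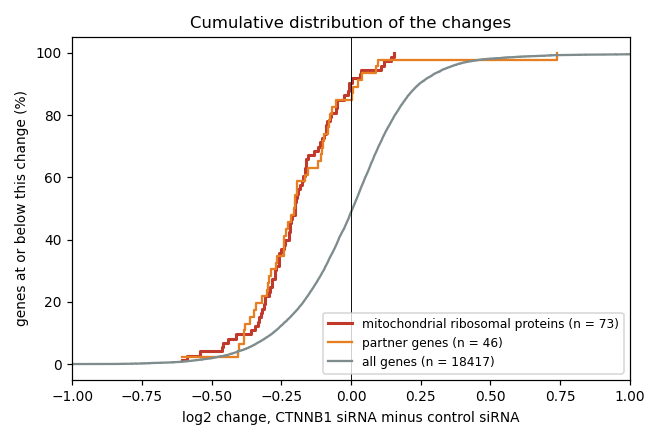
Cumulative share of genes (vertical axis, in %) at or below each log2 change of CTNNB1 siRNA minus control siRNA (horizontal axis), for 73 mitochondrial ribosomal protein genes, 46 partner genes and all 18417 genes. The first 2 curves run close to each other and left of the curve of all genes, with medians of -0.20, -0.20 and 0.0056; 1 partner gene, PNPT1, stands apart at 0.74.

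Before adjustment, 28 members had a p under 0.05 with a lower level, where 12.0% of all genes did, and no member had one with a higher level, where 8.34% did. At an adjusted p under 0.10, 10 members were lower and none higher, beside 5.47% and 3.58% of all genes. In 35 members, or 47.9%, all CTNNB1 siRNA arrays lay below all control arrays. The same held for 15.2% of all genes. In 1 member, MRPS18A, all CTNNB1 siRNA arrays lay above the control arrays, as in 10.8% of all genes. Brighter genes lay slightly lower in general on these arrays. Among genes above the median brightness, 58.6% had a negative change, the median was -0.05, and 4.62% fell. Of the members, 70 were among these, with 64 negative changes and a median of -0.20, and 5 of them (7.14%) fell. All CTNNB1 siRNA arrays lay below all control arrays in 35 of the 70, and in 24.7% of the 9209 brighter genes. An unadjusted p under 0.05 with a lower level was found in 28 of the 70, and in 1753 of the 9209.

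The members that fell came from both subunits. MRPS27, a small subunit protein of the pentatricopeptide repeat family with no bacterial counterpart, measured 8.58, 8.43 and 8.65 with CTNNB1 siRNA, against 9.05, 8.99 and 9.23 with control siRNA. The groups were apart by more than the range of either. This was 31.3% less signal (95% interval 18.9% to 41.7%; log2 change -0.54 ± 0.11 SE; limma, adjusted p = 0.0200), the smallest p of the 73.

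MRPL30, the counterpart of a bacterial large subunit protein, showed the most negative change of all members. Its log2 signal was 8.56, 8.27 and 8.67 with CTNNB1 siRNA, against 9.26, 8.95 and 9.11 with control siRNA. The replicates 2 were the lowest array of each group, and no CTNNB1 siRNA array reached a control array. The change was -0.61 ± 0.13 (SE; adjusted p = 0.0272), or 34.3% less signal (95% interval 19.9% to 46.2%).

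MRPS34 and MRPS23 are small subunit proteins that lack bacterial counterparts and are mutated in forms of combined oxidative phosphorylation deficiency. MRPS34 read 7.87, 7.88 and 7.79 in the CTNNB1 siRNA arrays, against 8.23, 8.22 and 8.42 in the control arrays. Its CTNNB1 siRNA arrays were close together (SD 0.05, n = 3), and its control replicate 3 stood above the other controls. For MRPS23 the values were 6.60, 6.71 and 7.13 with CTNNB1 siRNA, against 7.40, 7.35 and 7.47 with control siRNA. Here the CTNNB1 siRNA arrays were spread (SD 0.28, n = 3), with replicate 3 nearest to the controls, but still below them. MRPS34 changed by -0.44 ± 0.10 (SE; limma, adjusted p = 0.0324) and MRPS23 by -0.59 ± 0.14 (SE; limma, adjusted p = 0.0382) on the log2 scale.

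MRPL15, the counterpart of a bacterial protein of the large subunit, measured 7.91, 7.90 and 8.19 with CTNNB1 siRNA, against 8.41, 8.40 and 8.58 with control siRNA. The highest CTNNB1 siRNA array was again replicate 3, and the groups did not overlap. The log2 change of -0.46 ± 0.11 (SE) had an adjusted p of 0.0462 in limma, just inside the threshold.

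**Figure D2:**
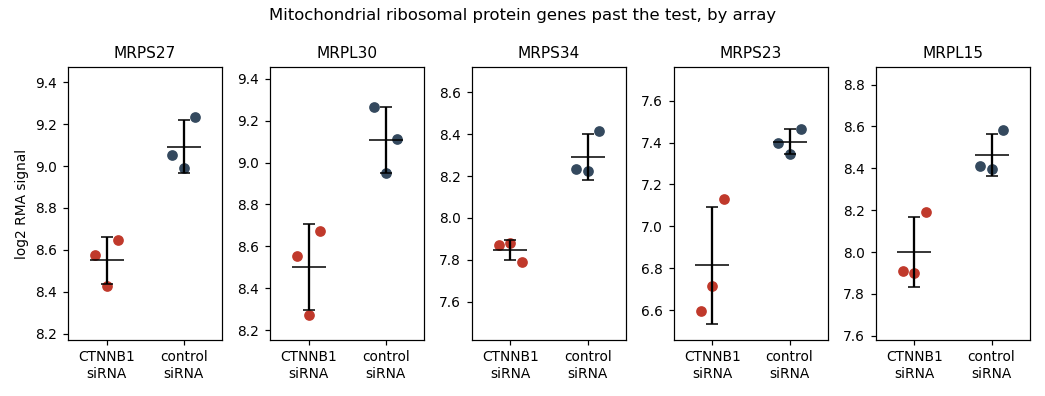
Log2 RMA signal (vertical axis, each panel spanning the same range) of the 5 mitochondrial ribosomal protein genes that fell, in each of the 3 CTNNB1 siRNA arrays and the 3 control siRNA arrays, with the mean and SD as black marks. In each panel all CTNNB1 siRNA points lie below all control points, with the widest spread among the CTNNB1 siRNA arrays of MRPS23 (SD 0.28).

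The 5 calls depended on which arrays were in the fit. Without CTNNB1 siRNA replicate 1 or 2, or control replicate 1 or 3, limma called none of the 73 genes. At an unadjusted p under 0.05, 18, 22, 19 and 15 of them, in that order, were lower. The shares of all genes lower at that cut were 9.88%, 9.56%, 9.15% and 8.56%. Without control replicate 2 the calls were MRPS27 and MRPL30, and 1.75% of all genes fell. Without CTNNB1 siRNA replicate 3 the calls were all but MRPS34, and 2.79% of all genes fell. The number of falls over all genes also shrank in the fits with no member called, to between 0.516% and 0.863%. The highest adjusted p of each gene over these fits was 0.0804 for MRPS27, 0.126 for MRPL30, 0.112 for MRPS34, 0.145 for MRPS23 and 0.160 for MRPL15. Log2 changes of the 5 genes stayed between -0.75 and -0.38, and the members' median stayed between -0.22 and -0.18. Under cyclic loess scaling the calls were MRPL30, MRPS27 and MRPS34, where 2.06% of all genes fell, and the members' median was -0.13. A per-gene test without moderation of the variance called none. At an unadjusted p under 0.05 it had 28 members lower, beside 10.8% of all genes.

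**Figure D3:**
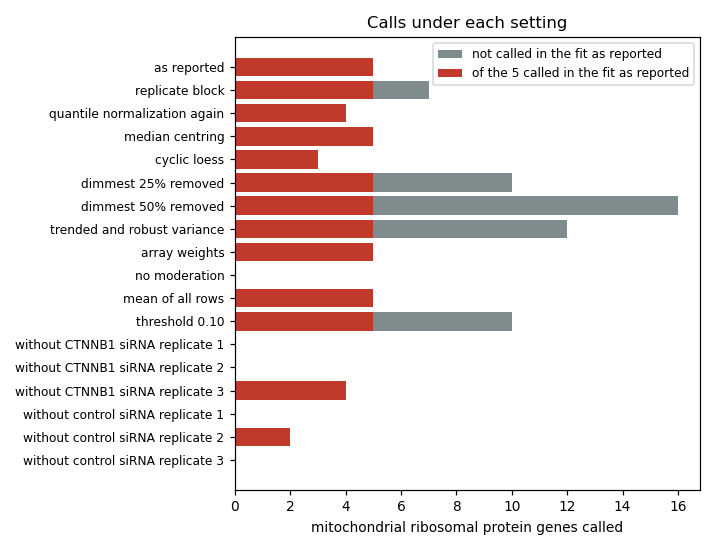
Number of mitochondrial ribosomal protein genes called (horizontal axis) under each setting of the analysis, with the share that was also called in the fit as reported in red. The count was 5 as reported and ran up to 16 with the dimmest 50% of genes removed, beside 2.65% and 13.2% of all genes tested. It was 0 without moderation of the variance and in 4 of the 6 fits that left out an array.

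The start regions of genes that fell are shown for the sequence motifs they hold. Promoter sequences from RefSeq (GRCh38.p14), from 250 bases before to 50 after the start of transcription, were matched for 66 of the 73 members, among them 4 of the 5 that fell. They were searched on both strands for CCGGAAG (the ETS family, which includes GABPA, a known activator of mitochondrial genes), AAGATGGC (YY1), GCGCA followed by any base and GCGC (NRF1) and CACGTG (the E-box of MYC and MAX). The 4 sequences below read 5′ to 3′ on the strand of the gene, and capitals mark the matches to the motifs, which do not overlap. They come from chr5:72320191-72320490 (minus strand) for MRPS27, chr2:99180934-99181233 (plus strand) for MRPL30, chr16:1773085-1773384 (minus strand) for MRPS34 and chr17:57849995-57850294 (minus strand) for MRPS23.
MRPS27: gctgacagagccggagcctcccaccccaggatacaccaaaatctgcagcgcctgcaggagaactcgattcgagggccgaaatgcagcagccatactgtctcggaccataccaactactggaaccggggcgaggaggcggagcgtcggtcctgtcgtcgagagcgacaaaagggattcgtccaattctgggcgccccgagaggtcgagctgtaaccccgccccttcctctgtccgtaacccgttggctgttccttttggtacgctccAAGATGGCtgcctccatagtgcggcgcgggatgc
MRPL30: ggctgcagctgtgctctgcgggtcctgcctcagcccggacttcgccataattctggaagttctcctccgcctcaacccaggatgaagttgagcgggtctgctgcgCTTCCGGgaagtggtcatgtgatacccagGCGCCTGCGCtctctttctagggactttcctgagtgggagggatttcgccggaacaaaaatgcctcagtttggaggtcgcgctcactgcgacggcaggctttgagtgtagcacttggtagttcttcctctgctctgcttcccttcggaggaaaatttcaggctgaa
MRPS34: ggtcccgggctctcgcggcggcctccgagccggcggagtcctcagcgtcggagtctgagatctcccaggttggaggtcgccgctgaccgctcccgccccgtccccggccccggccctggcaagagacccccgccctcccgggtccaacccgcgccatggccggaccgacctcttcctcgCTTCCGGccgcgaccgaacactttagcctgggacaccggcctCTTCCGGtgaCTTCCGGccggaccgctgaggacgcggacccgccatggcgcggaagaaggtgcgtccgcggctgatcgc
MRPS23: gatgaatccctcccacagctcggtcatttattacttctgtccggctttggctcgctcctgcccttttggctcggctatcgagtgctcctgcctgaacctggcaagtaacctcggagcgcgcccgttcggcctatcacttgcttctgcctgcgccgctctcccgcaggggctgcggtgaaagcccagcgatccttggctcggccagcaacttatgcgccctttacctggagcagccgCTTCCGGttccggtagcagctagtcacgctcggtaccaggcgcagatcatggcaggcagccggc

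MRPS34 held 3 matches to the ETS motif, all in the reverse orientation CTTCCGG, whose first bases lie 71, 29 and 19 bases before the start. In MRPS23 there was 1 such match, 14 bases before the start. MRPL30 held 1 ETS match 145 bases before the start and 1 NRF1 match 116 bases before it. The MRPS27 window held 1 YY1 match, beginning 16 bases after the start. No E-box was found in these 4 windows. A match of letters is not a bound site, and a window without one says nothing of the factor.

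Over all 66 windows, the ETS motif was present in 28 members (42.4%), and in 14.8% of the 13771 promoters of measured protein-coding genes. The YY1 motif was present in 18 members (27.3%) and in 4.15% of all promoters. For NRF1 the shares were 12.1% of members and 9.04% of all, and for the E-box 9.09% and 8.95%. The median log2 change was -0.20 in the 28 with an ETS match and -0.20 in the 38 without, and -0.21 in the 18 with a YY1 match and -0.18 in the 48 without. In the 6 members with an E-box the median was -0.13, and in the 60 without it -0.20. These differences were not tested.

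Some of these genes share a start region with a neighbour on the opposite strand. A protein-coding gene starting within 1000 bases and running the other way was found for 17 of the 66 members (25.8%) and for 10.7% of all 13771 genes. MRPL30 starts 126 bases from MITD1, which measured 0.11 ± 0.13 (SE; adjusted p = 0.694), and MRPS27 starts 133 bases from PTCD2, a gene of the pentatricopeptide repeat family, at -0.43 ± 0.12 (SE; adjusted p = 0.0714). The estimate for MITD1, the neighbour of the member with the most negative change, was above 0 by less than its SE. Of the 17 neighbours 13 had a negative change, beside 48.8% of all genes, and their median was -0.13. By the test 1 of the 17 fell, where 2.65% of all genes did. This was TCP1, a subunit gene of the cytosolic chaperonin, which fell by 0.50 ± 0.12 log2 units (limma, adjusted p = 0.0483), while its partner MRPL18 measured -0.05. Only the fit without CTNNB1 siRNA replicate 3 kept the TCP1 call when an array was left out, the adjusted p being 0.0638 to 0.169 in the other 5 fits, and it was 0.0503 with median centring, 0.0546 after a second quantile normalization, 0.0736 after cyclic loess and 0.199 without moderation. MRPS11 and MRPL46, members that share 1 such region and count among the 17 as each other's neighbour, measured -0.26 and -0.18.

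In the small subunit, 3 of 23 genes fell, 20 did not pass and all 23 changes were negative, with a median of -0.24. In the large subunit, 2 of 50 fell, 48 did not pass and 43 changes were negative, with a median of -0.19. Over all genes 2.65% fell. The groups did not overlap, with CTNNB1 siRNA lower, in 18 small subunit genes (78.3%) and in 17 large subunit genes (34.0%), where 15.2% of all genes met this rule. Among the 42 proteins with a bacterial counterpart 2 fell and the median was -0.22, and among the 28 mitochondria-specific ones 3 fell and the median was -0.17. All 3 falls of the small subunit were among its 9 mitochondria-specific proteins, whose median was -0.28. Of the 19 mitochondria-specific proteins of the large subunit none fell in limma, 2 had an unadjusted p under 0.05 with a lower level, and the median was -0.13. The differences between these classes were not tested.

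**Figure D4:**
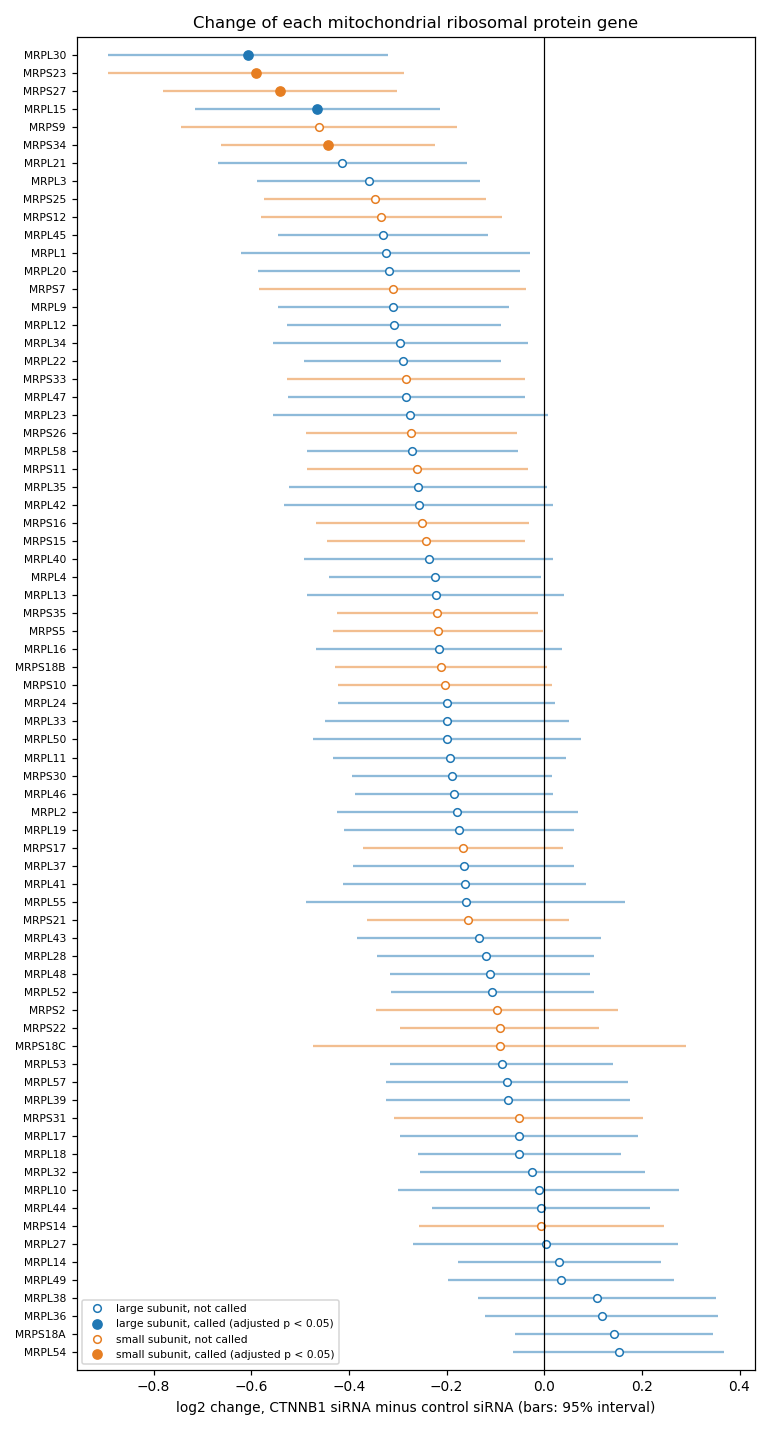
Log2 change of CTNNB1 siRNA minus control siRNA (horizontal axis, with 95% intervals) for each of the 73 genes, ordered by their change, with filled circles for the 5 that passed the test and colours for the subunit. The changes run from -0.61 for MRPL30 to 0.15 for MRPL54, and all 23 small subunit genes lie left of 0.

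Just outside the threshold were MRPS9, MRPL21, MRPL3, MRPL45 and MRPS25, with adjusted p between 0.0701 and 0.0841, named here because of those values. MRPS9 measured 7.60, 7.75 and 7.82 with CTNNB1 siRNA, against 8.11, 8.002 and 8.44 with control siRNA, which is -0.46 ± 0.13 (SE) on the log2 scale with an adjusted p of 0.0701 in limma. That change was as large as the one of MRPL15, but control replicate 3 stood well above the other controls. MRPL3, whose bacterial counterpart lies near the peptidyl transferase centre, was among the brightest members. It measured 10.70, 10.55 and 10.70 with CTNNB1 siRNA, against 10.90, 10.99 and 11.13 with control siRNA, a difference of -0.36 ± 0.10 (SE; limma, adjusted p = 0.0770). The groups of both genes did not overlap. MRPL45, which ties the ribosome to the inner membrane, measured -0.33 ± 0.10 (SE) in log2 change, with an adjusted p of 0.0831.

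Members with other functions lay along the same range. MRPL12, which forms the flexible stalk, measured -0.31 ± 0.10 (SE; limma, adjusted p = 0.109), while MRPL10, the base of that stalk, measured -0.01 ± 0.13 (adjusted p = 0.976). MRPL58, a peptidyl-tRNA hydrolase built into the large subunit, measured -0.27 ± 0.10 (adjusted p = 0.149). Of 12 members known from combined oxidative phosphorylation deficiency, 2 fell, MRPS34 and MRPS23, and 10 did not pass. All 12 changes were negative, with a median of -0.28, and they ended with MRPL44 and MRPS14 at -0.01 each. Among all 73 members 6.85% fell and 90.4% of the changes were negative, beside 2.65% and 48.8% over all genes. The difference of the 12 from the other members was not tested.

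At the upper end, 7 members had a positive change and none of them passed the test. The 4 most positive were MRPL54, MRPS18A, MRPL36 and MRPL38. MRPS18A, a large subunit protein in spite of its symbol, measured 8.64, 8.57 and 8.63 with CTNNB1 siRNA, against 8.52, 8.45 and 8.43 with control siRNA, a difference of 0.14 ± 0.09 (SE; adjusted p = 0.426). MRPL54 measured 5.80, 5.91 and 5.90 with CTNNB1 siRNA, against 5.74, 5.80 and 5.62 with control siRNA, so that its groups overlapped slightly, with a change of 0.15 ± 0.10 (SE; limma, adjusted p = 0.430). MRPL38 measured 0.11 ± 0.11 (SE) in log2 change.

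MRPL36, the counterpart of a small bacterial zinc-binding protein, read 10.93, 11.07 and 10.98 with CTNNB1 siRNA, against 10.83, 11.04 and 10.76 with control siRNA. Its direction depended on the array row. The brightest row gave 0.12 ± 0.11 (SE), while its other row, in a fit of all rows, gave -0.33 ± 0.14 (SE; adjusted p = 0.349), with 7.96, 7.65 and 8.15 in the CTNNB1 siRNA arrays, against 8.15, 8.28 and 8.31 in the control arrays. MRPL20 and MRPS18B also had several rows, which held the same values.

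The dimmest rows were those of MRPS18C and MRPL13, where the arrays of a group differed as much as the groups. MRPS18C read 5.57, 4.97 and 5.64 with CTNNB1 siRNA, against 5.53, 5.29 and 5.63 with control siRNA. Its CTNNB1 siRNA replicate 2 was far below its other arrays, its change was -0.09 ± 0.17 (SE), and without that replicate it was 0.12. MRPL13 read 5.22, 5.45 and 5.45 with CTNNB1 siRNA, against 5.56, 5.44 and 5.78 with control siRNA, a change of -0.22 ± 0.12 (SE; limma, adjusted p = 0.333). Signals of different rows are not compared as amounts of transcript, because probes differ in how strongly they bind.

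Standard errors of the 73 log2 changes ran from 0.09 to 0.17, with a median of 0.11. For 51 of the 68 members that did not pass, the 95% interval excluded a fall of 0.5 log2 units or more, and for 17 it did not. A member that missed the threshold is therefore not shown to be unaffected. Because a fixed mass of RNA was labelled and RMA scales the arrays to each other, less of a transcript per cell and a change in the total RNA per cell cannot be told apart.

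The lower level was visible in each CTNNB1 siRNA array, and the arrays of a group were not alike. Relative to the mean of the control arrays, the median member measured -0.20, -0.24 and -0.15 log2 units in CTNNB1 siRNA replicates 1, 2 and 3, against -0.03, -0.04 and 0.06 in control replicates 1, 2 and 3. Over all genes the corresponding medians lay between -0.02 and 0.02. Control replicate 3 was the brightest of the 6 arrays for 44 members, where it was for 23.3% of all genes. The dimmest array was a CTNNB1 siRNA array for 63 members (86.3%), and for 52.0% of all genes. Without control replicate 3 the members' median change was -0.18, and 62 of the 73 changes were negative.

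**Figure D5:**
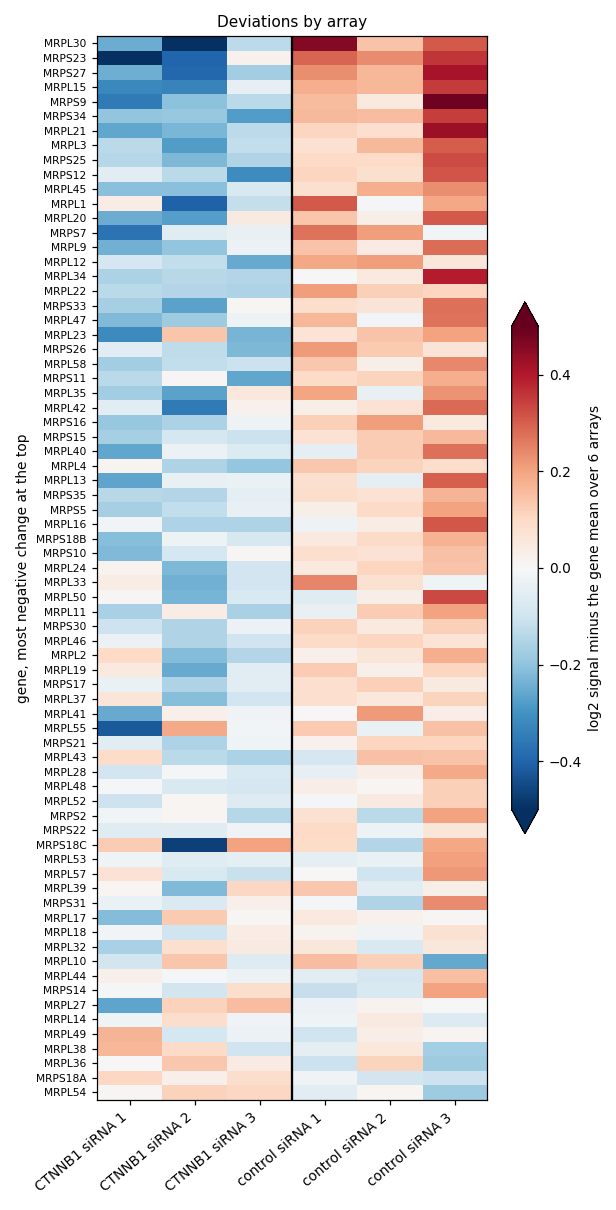
Log2 signal minus the gene's mean over the 6 arrays (colour, blue below and red above the mean, cut at 0.5) for each of the 73 genes (rows, most negative change at the top) in the 3 CTNNB1 siRNA arrays and the 3 control siRNA arrays. Blue prevails left of the line and red right of it, and control replicate 3 is the brightest array for 44 genes.

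Genes that work with the mitochondrial ribosome were set beside its proteins. The list held ribosomal subunits with other symbols, assembly factors, translation factors and factors of mitochondrial transcription and RNA stability. Of its 49 genes 46 were measured, of which 1 fell, 1 rose and 44 did not pass. The shares that fell and rose, 2.17% each, were close to the 2.65% and 2.07% of all genes, so the number of calls at this threshold does not set the list apart. At an adjusted p under 0.10, 6 of the 46 were lower and 1 higher, beside 5.47% and 3.58% of all genes. All CTNNB1 siRNA arrays lay below all control arrays in 22 of the 46 (47.8%) and above them in 1, beside 15.2% and 10.8% of all genes. The median log2 change of the 46 was -0.20, with 39 negative changes (84.8%, beside 48.8% of all genes). LRPPRC, which stabilises mitochondrial messages, fell, with 10.30, 10.29 and 10.53 in the CTNNB1 siRNA arrays, against 11.07, 10.97 and 10.90 in the control arrays. The groups were well apart, and the log2 difference was -0.61 ± 0.11 (SE; adjusted p = 0.0116). Leaving out replicate 1 of either group ended this call, at an adjusted p of 0.0641 for the CTNNB1 siRNA array and 0.0666 for the control array.

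PNPT1, the mitochondrial polynucleotide phosphorylase and also a known interferon-induced gene, rose. It measured 10.66, 10.65 and 10.78 with CTNNB1 siRNA, against 10.00, 9.77 and 10.10 with control siRNA, groups that lay well apart. The change was 0.74 ± 0.11 log2 units (SE; limma, adjusted p = 0.00544), and the highest adjusted p with an array left out was 0.0316. None of the 13 translation factors passed the test in limma, 6 of them having an unadjusted p under 0.05 with a lower level, as 12.0% of all genes did, and their median was -0.23. The elongation factor gene GFM1 measured -0.40 ± 0.11 (SE; adjusted p = 0.0640) and the initiation factor gene MTIF2 -0.41 ± 0.12 (SE; adjusted p = 0.0936). Among 21 assembly factors none passed, 9 had an unadjusted p under 0.05 with a lower level, beside the same 12.0%, and the median was -0.20. The 4 subunits with other symbols (DAP3, PTCD3, CHCHD1 and GADD45GIP1) had changes of both signs and a median of -0.06, and none passed.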

How the data were processed

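The authors deposited log2 values, which the submitters' processing notes tie to RMA and to Affymetrix Expression Console 1.1. In RMA the background is corrected, the arrays are scaled to each other at the level of probes and the probes belonging to a row are combined, and the deposited row values still differed in their medians. That the scale is log2 follows from the range of the values, 0.789 to 14.5. The genome build and annotation version: not given in the sources used here.

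Of 33297 rows, 19460 had exactly 1 gene symbol, which gave 18417 genes, with the brightest row over the 6 arrays for a gene with several rows. Nothing was filtered or scaled again. Without scanner intensities, whether a dim row was above background is unknown, and the small number of arrays limits precision.

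CTNNB1 siRNA minus control siRNA was fitted with lmFit and eBayes of limma 3.58.1 (R 4.3.3), with two-sided p-values adjusted by Benjamini-Hochberg over all 18417 genes. The fit was tested on simulated data with known changes, with noise drawn independently for each gene and array. Deviations that many genes of an array share were not simulated. The members and lists were chosen with earlier results of these data known. The members named with their values are the called ones, the 4 most negative and 4 most positive changes, the 2 brightest and 2 dimmest, and the called partner genes. Other genes are named because of their values, their function, a shared start region or their place on a list. The other settings are given in the closing section. No arrays of a group held identical values.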

Additional observations from a re-analysis of the deposited data

How the results depend on the processing

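Precision is limited by 3 arrays per group, by unknown background calls for dim rows and by the common scaling, which hides a shift shared by most genes. No setting called a mitochondrial ribosomal protein gene higher, in limma or in the test without moderation. At an unadjusted p under 0.05, 1 member was higher under cyclic loess and 1 without moderation, and 0 under the other settings. No setting turned the sign of the members' median, which was -0.16 after a second quantile normalization, -0.13 after cyclic loess and -0.22 to -0.18 with an array left out. Under cyclic loess 60 of 73 changes were negative and 3 members fell, beside 48.7% and 2.06% of all genes. There MRPS23 was at an adjusted p of 0.0508 in limma and MRPL15 at 0.0571. After the second quantile normalization MRPL15 was at 0.0514. The members that fell numbered 10 with the dimmest 25% of genes removed (6.71% of all genes tested fell there), 16 with the dimmest 50% removed (13.2%), 12 with a trended and robust variance (5.63%) and 10 at a threshold of 0.10 (5.47%), with fewer genes tested in the first 2. The per-gene test without moderation called 0 members and 0.195% of all genes lower. At an unadjusted p under 0.05 this test had 28 members and 10.8% of all genes lower. In it CTNNB1 had a change of -0.77 and an adjusted p of 0.0660. Leaving out an array gave 0 to 4 falls among the members, in fits where 0.516% to 2.79% of all genes fell. Partner genes that fell numbered 5 and 10 with the 25% and 50% removed, 8 with the trended variance, 3 with array weights, 6 at 0.10, 0 without moderation (where 0 rose too) and 0 to 2 with an array left out. The replicate block gave 7 falls among the members and 3 among the partner genes, with all 5 reported members among the 7. With this block 3.84% of all genes fell, and with array weights 3.69%, beside 2.65% in the fit as reported. Same-numbered arrays deviated together in replicates 2 and 3 (r = 0.33 and 0.22 over genes) but not in replicate 1 (r = -0.02). Arrays of different numbers gave r between -0.29 and 0.08. Deviations were taken from the mean of the 3 arrays of a group, so these r values are not independent of each other. The labels do not say what a number shares, so the numbers were not taken as pairs in the fit as reported. MRPL36 measured -0.11 as the mean of its rows, and MRPS18C 0.12 without CTNNB1 siRNA replicate 2. The causes of these differences were not tested.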

Other observations

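In all, 4 array rows carry the symbol of a mitochondrial ribosomal protein gene together with that of another gene, and stayed outside the comparison because their signal cannot be given to 1 gene. In a fit over all rows none passed an adjusted p of 0.05 in limma, and 2 had an unadjusted p under 0.05, both with a lower level. In the fit of genes 12.0% of all genes were lower at that cut. Shares in this section are over the 18417 genes, not over all rows. The row of MRPL51 and SPTLC1 measured 9.86, 9.60 and 10.00 with CTNNB1 siRNA, against 10.19, 10.05 and 10.35 with control siRNA, a log2 difference of -0.38 ± 0.14 (SE). The row of MRPS6 and SLC5A3 measured 7.52, 7.37 and 7.57 with CTNNB1 siRNA, against 7.81, 7.74 and 8.07 with control siRNA, a difference of -0.39 ± 0.12 (SE). The row of MRPS24 and its readthrough with URGCP differed by -0.19 ± 0.09 (SE), and the row of MRPS28 and TPD52 by 0.17 ± 0.11 (SE). In all 4 rows the groups did not overlap, with CTNNB1 siRNA lower in 3 of them and higher in the row of MRPS28 and TPD52, where 15.2% of all genes did not overlap with CTNNB1 siRNA lower and 10.8% with it higher. A further row, of URGCP and that readthrough, differed by 0.17 ± 0.16 (SE; limma, adjusted p = 0.698). The pseudogene MRPS31P5 differed by 0.0069 ± 0.13 (SE).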
